A study of Homo sapiens with 12 samples.

Results

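The 9 genes described here encode subunits of phosphoinositide 3-kinase (PI3K) and proteins that hold the pathway back. They are the inhibitor PIK3IP1, the phosphatases INPP4B and PHLPP1, the catalytic subunits PIK3CA, PIK3CB and PIK3CD, and the regulatory subunits PIK3R1, PIK3R2 and PIK3R3. They were picked by gene symbol and not by any measured value, and all 9 were among the 19907 symbols in each of the 12 RNA-seq libraries. The libraries came from MDA-MB-231, a human triple negative breast cancer cell line. One line carried wild-type glucocorticoid receptor (wt-GR) and the other carried GR whose Ser134 phosphorylation site was changed to alanine (S134A-GR), by CRISPR/Cas9 knock-in on both alleles of NR3C1, the gene that encodes GR. Cells of both lines were starved for 18 h in IMEM with 1% charcoal-stripped serum, and then received vehicle (Veh) or TGFβ1 at 10 ng/mL over 6 h, with no GR ligand added. Each of the 4 groups (wt-GR Veh, wt-GR TGFβ1, S134A-GR Veh and S134A-GR TGFβ1) had 3 libraries. S134A-GR was 1 clone and wt-GR was 1 clone that went through the same procedure unedited, so the mutation and the clone cannot be told apart. Nothing in the labels says that replicates were separate cultures, so p-values measure the spread between these libraries, which may be technical.

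Class I PI3K is a lipid kinase built from a p110 catalytic subunit and a regulatory subunit. It makes the membrane lipid PIP3, which recruits AKT and other kinases that drive growth and survival. Inositol phosphatases remove phosphates from these lipids, PHLPP1 removes a phosphate from AKT itself, and PIK3IP1 is a transmembrane protein that binds p110 and dampens its activity. The pathway is often altered in breast cancer, and PIK3CA is among the genes most often mutated there. TGFβ1 signals through SMAD factors and through kinases that include PI3K and p38 MAPK.

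Gene counts summed to between 56362036 and 129832227 per library, with a mean of 93475178. That mean lies above the average number of reads given in the labels, and whether both ends of a pair were counted is not given in the sources used here. All 9 genes passed the filter on low counts, and their lowest value in any library was 470.9 normalized counts. Counting error was taken as 1 over the square root of the count, averaged over the libraries of a group, and was 0.861% to 4.99%. In 5 of the 36 pairs of gene and group it was at least as large as the coefficient of variation of the replicates (0.751% to 14.3%). As markers of the cell line, VIM (419832 to 533198 normalized counts) and CD44 (41033 to 62473) were high in each library, while ESR1 did not exceed 7.32 and CDH1 did not exceed 12.5. Of the markers of other cells, PTPRC did not exceed 9.80 and PDGFRA did not exceed 31.1, whereas PECAM1 lay between 746.1 and 1454 and was lower with TGFβ1 and in S134A-GR cells. Its part in the results was not tested. NR3C1 was present in all groups, and each S134A-GR library (8336 to 9398 normalized counts) lay below each wt-GR library (10444 to 12729). Whether this difference bears on the 9 genes was not tested, and gene counts cannot show the S134A change. Among replicates, wt-GR Veh replicates 1 and 3 differed most, and replicate 1 had the fewest reads. For 6 of the 9 genes (PIK3R1, PIK3R3, PIK3CA, PIK3CB, INPP4B and PHLPP1) replicate 1 of this group was the highest and replicate 3 the lowest, an order seen in 23.1% of all genes tested. Each library was therefore left out in turn. The values are given wherever a call of the 9 genes changed, and for only some of the other genes named.

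The response to TGFβ1 was asked first. In wt-GR cells TGFβ1 raised PIK3IP1, INPP4B, PIK3CD and PIK3R2 and lowered PIK3R3 and PHLPP1. In S134A-GR cells it raised PIK3IP1, INPP4B and PIK3CD and lowered PIK3R3. PIK3IP1 was the one gene of the 9 that moved more than 2-fold, a size reached by 2.29% of all genes in wt-GR and 1.66% in S134A-GR cells. A gene was called at an adjusted p under 0.05 in limma, fitted on log2(normalized count + 1) over the 18579 genes tested with Benjamini-Hochberg adjustment, and all adjusted p-values below are of this kind unless another tool is named. In wt-GR cells 6 of the 9 genes were called, beside 21% of all genes, with 4 higher (11.2% of all genes) and 2 lower (9.82%). In S134A-GR cells 4 were called, beside 18.7% of all genes, with 3 higher (10%) and 1 lower (8.69%). The median absolute log2 fold change over the 9 genes was 0.29 in wt-GR cells against 0.16 over all genes tested, and 0.20 against 0.15 in S134A-GR cells. With 9 genes these shares and medians are a description.

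**Figure D1:**
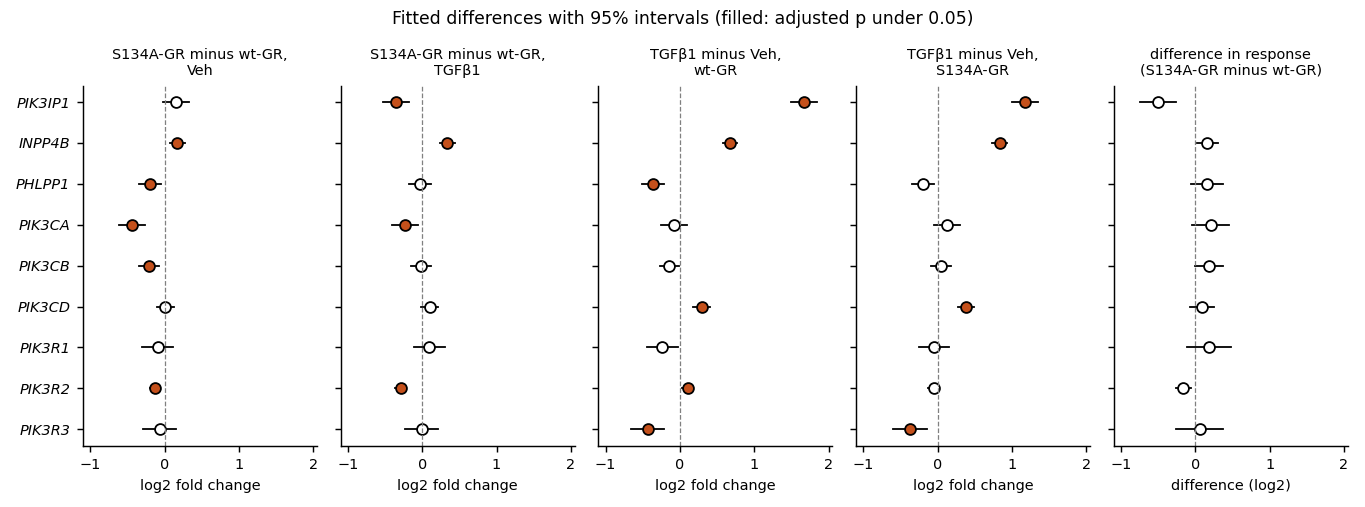
Log2 fold change (x axis) of each of the 9 genes (y axis) in the 4 comparisons, and in the last panel the S134A-GR response minus the wt-GR response. Points are limma estimates, bars are 95% intervals and filled points are called. PIK3IP1 lies farthest from 0 in both TGFβ1 panels, at 1.68 and 1.17, and no point is filled in the last panel.

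PIK3IP1 (ENSG00000100100.13, chr22:31281594-31292534, minus strand, GRCh38) encodes the PI3K inhibitor. Under Veh its normalized counts in wt-GR cells were 470.9, 508.4 and 512.8, and in S134A-GR cells 541.0, 589.0 and 533.6. With TGFβ1 they were 1691, 1569 and 1513 in wt-GR cells and 1270, 1374 and 1115 in S134A-GR cells. All 6 TGFβ1 libraries lay above all 6 Veh libraries, and the 3 S134A-GR TGFβ1 libraries lay below the 3 wt-GR TGFβ1 libraries. Means rose from 497.3 ± 23.0 to 1591 ± 90.7 (SD, n = 3) in wt-GR cells, a 3.199-fold rise with a log2 fold change of 1.68 (95% interval 1.501 to 1.849, adjusted p = 2.96e-09). In S134A-GR cells they rose from 554.5 ± 30.0 to 1253 ± 131, a 2.26-fold rise with a log2 fold change of 1.17 (0.996 to 1.34, adjusted p = 1.49e-07). At the log2 limit of 1.5 that the study used, PIK3IP1 therefore passed in wt-GR cells alone (1.24% of all genes passed there, and 0.834% in S134A-GR cells), although it rose in both lines. Under TGFβ1 the S134A-GR level was lower by a log2 of -0.35 (-0.52 to -0.17, adjusted p = 0.00251), and under Veh the difference was 0.16 (-0.018 to 0.33, adjusted p = 0.125). These calls were the same in all 21 alternative analyses. The study placed PIK3IP1 in a gene signature that it drew from these same libraries, so its pattern here is not independent evidence. Separately, by qRT-PCR, the study reported that TGFβ1 induced PIK3IP1 in wt-GR cells and did not in the S134A-GR line. Its reported induction in wt-GR cells was far larger than the 3.199-fold rise here. The lack of induction in the S134A-GR line also differs from the rise seen here in both lines. By chromatin immunoprecipitation it reported TGFβ1-induced GR recruitment to the PIK3IP1 promoter with wt-GR, and none with S134A-GR. That assay followed a shorter TGFβ1 treatment than the 6 h of these libraries. The reason for the differences from qRT-PCR was not tested.

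The promoter windows of the 3 genes that rose in both lines are shown because TGFβ1 and GR act through DNA-binding factors whose short motifs can be looked for there. RefSeq windows of GRCh38.p14, from 250 bases before to 50 bases after an annotated start, were matched for all 9 genes (26 windows). For each of the 3 genes the window with the most motif matches is printed, 5′ to 3′ on the gene's strand. Capitals mark matches on either strand to the SMAD box CAGAC, the GR half-site AGAACA or the FOXO site GTAAACA. The PIK3IP1 window is chr22:31292439-31292738 (minus strand), the INPP4B window is chr4:142405810-142406109 (minus strand) and the PIK3CD window is chr1:9689294-9689593 (plus strand).
PIK3IP1: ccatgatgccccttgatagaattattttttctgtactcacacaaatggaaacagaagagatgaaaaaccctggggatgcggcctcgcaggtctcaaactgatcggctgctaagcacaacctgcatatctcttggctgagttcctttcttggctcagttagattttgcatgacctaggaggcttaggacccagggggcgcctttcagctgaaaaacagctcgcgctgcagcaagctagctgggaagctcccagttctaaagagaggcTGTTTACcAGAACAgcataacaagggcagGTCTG
INPP4B: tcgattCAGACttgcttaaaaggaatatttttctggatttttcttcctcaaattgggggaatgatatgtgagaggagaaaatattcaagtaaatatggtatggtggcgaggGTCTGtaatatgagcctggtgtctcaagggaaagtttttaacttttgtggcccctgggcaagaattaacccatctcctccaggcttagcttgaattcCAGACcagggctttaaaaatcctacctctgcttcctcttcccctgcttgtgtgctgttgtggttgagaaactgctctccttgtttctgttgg
PIK3CD: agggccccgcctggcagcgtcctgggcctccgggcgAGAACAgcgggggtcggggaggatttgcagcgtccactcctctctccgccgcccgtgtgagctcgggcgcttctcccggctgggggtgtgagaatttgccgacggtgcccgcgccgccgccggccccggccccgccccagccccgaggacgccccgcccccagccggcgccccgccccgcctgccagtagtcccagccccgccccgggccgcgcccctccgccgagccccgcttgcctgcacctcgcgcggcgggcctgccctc

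The PIK3IP1 window held 3 matches, all near its 3′ end and past the annotated start. In order they were a FOXO site on the opposite strand, a GR half-site, and a SMAD box on the opposite strand. The INPP4B window held 3 SMAD boxes, of which the second was on the opposite strand, and the PIK3CD window held 1 GR half-site. Both of these windows lie inside the annotated span of their gene. Of the 6 INPP4B windows 3 held a SMAD box, and the window nearest the 5′ end of the gene (chr4:142846252-142846551) held none. Of the 3 PIK3CD windows 1 held a GR half-site. Across all 26 windows of the 9 genes, 8 held a SMAD box (30.8%, against 45.3% of all 35116 RefSeq windows), 8 held a GR half-site (30.8% against 14.8%) and 2 held a FOXO site (7.69% against 3.42%). Windows of 1 gene can overlap and share a match. No window of the 9 genes held the AP-1 site TGANTCA, present in 7.71% of all windows. None held an exact match to the full GR element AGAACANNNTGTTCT either, which contains the half-site and occurred in 1 window of the 35116. The study described the PIK3IP1 region of its chromatin immunoprecipitation as holding a glucocorticoid response element. Whether that element lies within these windows was not tested. Half-sites were found for PIK3IP1, PIK3CD, PIK3R1 and PIK3R3, and SMAD boxes for PIK3IP1, INPP4B, PIK3R1 and PIK3R3. These short matches are letters in a window and not measured binding.

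INPP4B (ENSG00000109452.13, chr4:142023160-142847432, minus strand) removes a phosphate from a lipid that forms as PIP3 is broken down. Its normalized counts under Veh were 1993, 1884 and 1878 in wt-GR cells and 2128, 2118 and 2245 in S134A-GR cells. With TGFβ1 they were 2955, 3226 and 3002 in wt-GR cells and 3947, 3818 and 3826 in S134A-GR cells. The 4 groups were fully separated, with S134A-GR above wt-GR under both treatments. TGFβ1 raised INPP4B 1.60-fold in wt-GR cells (log2 0.67, 0.57 to 0.77, adjusted p = 1.16e-07) and 1.79-fold in S134A-GR cells (log2 0.84, 0.74 to 0.94, adjusted p = 1.47e-08). S134A-GR cells had more INPP4B under Veh (log2 0.17, adjusted p = 0.00612) and under TGFβ1 (log2 0.34, adjusted p = 3.29e-05). The direction of the line difference under TGFβ1 was thus opposite to that of PIK3IP1, and all 4 calls were the same in each of the 21 alternatives.

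PHLPP1 (ENSG00000081913.14, chr18:62715541-62980433, plus strand) encodes the phosphatase that acts on AKT. Its normalized counts in wt-GR cells were 2007, 1851 and 1629 under Veh and 1503, 1435 and 1333 with TGFβ1. In S134A-GR cells they were 1604, 1580 and 1591 under Veh and 1372, 1363 and 1426 with TGFβ1. In both lines each TGFβ1 library lay below each Veh library. The fall in wt-GR cells was 22.2% (fell by 0.36 on the log2 scale, adjusted p = 0.00192). In S134A-GR cells the log2 difference was -0.20 with adjusted p = 0.0624, and it passed in DESeq2 (adjusted p = 0.0349), with only these 2 groups fitted (adjusted p = 0.0134), and without wt-GR Veh replicate 1 (adjusted p = 0.0311) or replicate 3 (adjusted p = 0.0203). Under Veh the S134A-GR level was lower by a log2 of -0.19 (adjusted p = 0.0298). That call was lost under 7 of the 21 alternatives, among them leaving out wt-GR Veh replicate 1 (log2 -0.13, adjusted p = 0.142) or replicate 2 (adjusted p = 0.0818), or S134A-GR Veh replicate 1, 2 or 3 (adjusted p = 0.0607, 0.0716 and 0.0670).

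Among the catalytic subunits, PIK3CD rose with TGFβ1 in both lines, while PIK3CA and PIK3CB were not called in either. PIK3CD (ENSG00000171608.18, chr1:9629889-9729114, plus strand) encodes p110δ, which is best known from leukocytes. Its normalized counts were 5633, 6059 and 5620 in wt-GR Veh and 7003, 6796 and 7381 in wt-GR TGFβ1 libraries. In S134A-GR cells they were 5719, 5757 and 5956 under Veh and 6999, 7701 and 8017 with TGFβ1. Treated and vehicle libraries did not overlap in either line, whereas the lines overlapped within each treatment. The rise was 1.223-fold in wt-GR cells (log2 0.29, adjusted p = 0.000924) and 1.30-fold in S134A-GR cells (log2 0.38, adjusted p = 0.000106), kept in all alternatives. The line difference under TGFβ1 (log2 0.10, adjusted p = 0.127) passed without S134A-GR TGFβ1 replicate 1 (log2 0.16, adjusted p = 0.0153).

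PIK3CA (ENSG00000121879.6, chr3:179148114-179240093, plus strand) encodes p110α. Its normalized counts under Veh were 4303, 4182 and 3444 in wt-GR cells and 2928, 2819 and 3009 in S134A-GR cells. With TGFβ1 they were 3548, 4076 and 3630 in wt-GR cells and 3515, 3036 and 3026 in S134A-GR cells. Under each treatment the S134A-GR libraries lay below the wt-GR libraries, by a wide gap under Veh and by a narrow one under TGFβ1. PIK3CA was 26.6% lower in S134A-GR cells under Veh (log2 -0.44, -0.62 to -0.26, adjusted p = 0.000447). Under TGFβ1 it was 14.9% lower (log2 -0.23, adjusted p = 0.0306), and this call was lost without wt-GR TGFβ1 replicate 2 (log2 -0.17, adjusted p = 0.140), S134A-GR TGFβ1 replicate 2 (log2 -0.20, adjusted p = 0.106) or replicate 3 (log2 -0.20, adjusted p = 0.109). KCNMB3, on the opposite strand, shares 19.8% of the exon bases of PIK3CA, and the strand setting of the counting is not given in the sources used here. KCNMB3 had means of 154.1 and 220.7 normalized counts in wt-GR Veh and S134A-GR Veh, the opposite direction to PIK3CA, and its part in the result was not tested.

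PIK3CB (ENSG00000051382.9, chr3:138652698-138834928, minus strand) encodes p110β. Its normalized counts under Veh were 6037, 5703 and 5173 in wt-GR cells and 4717, 4800 and 5083 in S134A-GR cells. With TGFβ1 they were 4786, 5330 and 5191 in wt-GR cells and 5367, 4779 and 4939 in S134A-GR cells. The lines were separated under Veh and overlapped under TGFβ1. PIK3CB was 13.7% lower in S134A-GR cells under Veh (log2 -0.21, adjusted p = 0.0106), with adjusted p = 0.05001 and a log2 of -0.16 without wt-GR Veh replicate 1. The TGFβ1 difference in wt-GR cells (log2 -0.14, adjusted p = 0.125) passed without wt-GR Veh replicate 3 (log2 -0.20, adjusted p = 0.0227).

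The regulatory subunits hold the catalytic subunits stable and bring them to phosphorylated receptors and adaptors. PIK3R3 (ENSG00000117461.15, chr1:46040140-46133036, minus strand), which encodes p55γ, fell with TGFβ1 in both lines. Its normalized counts in wt-GR cells were 1049, 931.1 and 832.9 under Veh and 717.7, 705.9 and 650.8 with TGFβ1. In S134A-GR cells they were 849.2, 965.1 and 863.3 under Veh and 776.1, 590.3 and 708.9 with TGFβ1. Veh and TGFβ1 libraries did not overlap in either line, and the lines overlapped under both treatments. PIK3R3 fell by 0.43 on the log2 scale in wt-GR cells (adjusted p = 0.00862) and by 0.37 in S134A-GR cells (adjusted p = 0.0223). The S134A-GR call was lost when only these 2 groups were fitted (adjusted p = 0.0833), and without S134A-GR Veh replicate 2 (log2 -0.32, adjusted p = 0.0951) or S134A-GR TGFβ1 replicate 2 (log2 -0.26, adjusted p = 0.0971). A read-through gene on the same strand, P3R3URF-PIK3R3, shares 17.5% of the exon bases of PIK3R3.

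PIK3R2 (ENSG00000105647.19, chr19:18153163-18170532, plus strand) encodes p85β. Its normalized counts in wt-GR cells were 11921, 11522 and 12064 under Veh and 13213, 12524 and 12502 with TGFβ1. In S134A-GR cells they were 10760, 10945 and 10783 under Veh and 10618, 10535 and 10167 with TGFβ1. S134A-GR libraries lay below wt-GR libraries under both treatments. PIK3R2 was 8.50% lower in S134A-GR cells under Veh (log2 -0.13, adjusted p = 0.00571) and 18.1% lower under TGFβ1 (log2 -0.29, adjusted p = 7.38e-06), calls that held in all 21 alternatives. TGFβ1 raised PIK3R2 by 7.70% in wt-GR cells (log2 0.11, adjusted p = 0.0381), a call lost under 10 alternatives. Among these were leaving out wt-GR Veh replicate 1 (adjusted p = 0.0630) or 2 (adjusted p = 0.155), wt-GR TGFβ1 replicate 1 (adjusted p = 0.164), 2 (adjusted p = 0.0510) or 3 (adjusted p = 0.0507), and any S134A-GR Veh replicate (adjusted p = 0.0551, 0.0514 and 0.0544). A second annotated gene on the same strand, ENSG00000268173, shares 76.3% of the exon bases of PIK3R2, so how its reads were divided is uncertain.

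PIK3R1 (ENSG00000145675.16, chr5:68215740-68301821, plus strand) encodes p85α, a subunit whose loss is known to destabilise p110. Its normalized counts in wt-GR cells were 1921, 1637 and 1448 under Veh and 1476, 1433 and 1313 with TGFβ1. In S134A-GR cells they were 1541, 1523 and 1593 under Veh and 1633, 1315 and 1567 with TGFβ1. The groups overlapped in all 4 comparisons and none was called. The largest of the 4 differences was the wt-GR response (log2 -0.24, -0.44 to -0.030, adjusted p = 0.103), which passed without wt-GR Veh replicate 3 (log2 -0.34, adjusted p = 0.0170).

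**Figure D2:**
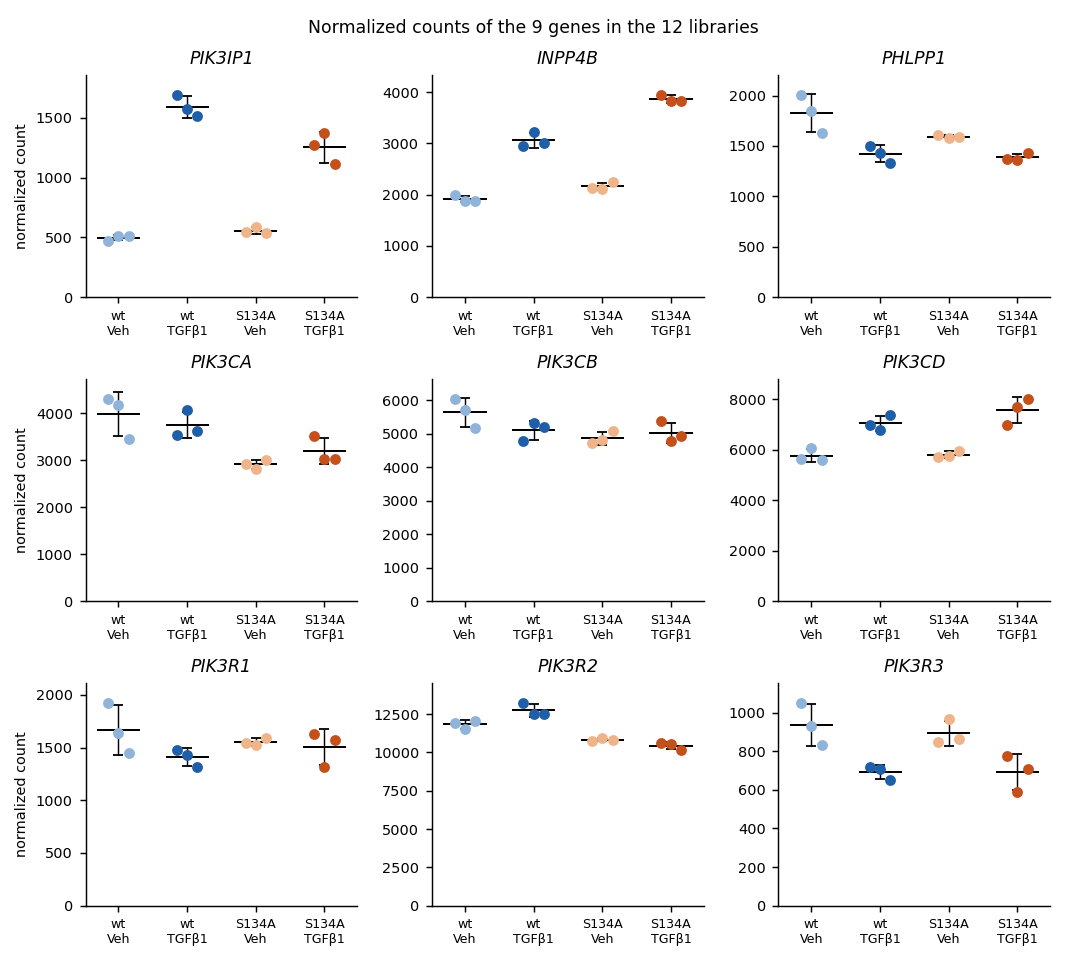
Normalized counts (y axis, from 0, a different scale in each panel) of the 9 genes in the 4 groups (x axis). Points are the 3 libraries of a group in order of replicate number, lines are means and bars are SD. PIK3IP1 and INPP4B are higher in all TGFβ1 libraries than in all Veh libraries, and PIK3CA and PIK3R2 are lower in S134A-GR than in wt-GR libraries under both treatments.

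The comparison of the lines asks what the S134A-GR line differs in with the treatment held the same. Under Veh 5 of the 9 genes were called, beside 51.5% of all genes tested, with INPP4B higher (25% of all genes) and PIK3CA, PIK3CB, PIK3R2 and PHLPP1 lower (26.5%). Under TGFβ1 4 were called, beside 48.8% of all genes, with INPP4B higher (23.1%) and PIK3IP1, PIK3R2 and PIK3CA lower (25.7%). The shares called in either direction lie near those of all genes. By direction, 4 and 3 of the 9 genes were lower, larger shares than over all genes. In each comparison 1 was higher, a smaller share. With 9 genes this is a description. The sizes were modest, since the median absolute log2 difference over the 9 genes was 0.16 under Veh against 0.32 over all genes, and 0.10 under TGFβ1 against 0.30. The 2 sets differ in level, because all genes tested include genes with few reads and the 9 genes do not. With a stricter filter on low counts, 9461 of 15866 genes were called under Veh and 9024 under TGFβ1. None of the 9 genes passed 2-fold between the lines, a limit that 9.51% of all genes passed under Veh and 8.46% under TGFβ1. INPP4B, PIK3CA and PIK3R2 were called in the same direction under both treatments. Without wt-GR Veh replicate 1 the count under Veh was 3, with PIK3CB and PHLPP1 lost.

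Whether the TGFβ1 response itself differed between the lines was tested as an interaction, which uses the same 12 libraries as the comparisons above. None of the 9 genes passed in limma, and 4 had an unadjusted p under 0.05 (PIK3IP1, PIK3R2, INPP4B and PIK3CB). The count was also 0 in edgeR and was 1 in DESeq2. Of all 18579 genes tested, 77 passed in limma (0.414%), 78 in edgeR and 208 in DESeq2. For PIK3IP1 the S134A-GR response minus the wt-GR response was -0.51 on the log2 scale (-0.75 to -0.26, adjusted p = 0.103). DESeq2 gave -0.50 with adjusted p = 0.0112, and over the alternatives the adjusted p ranged from 0.0112 to 0.316. For PIK3R2 the difference was -0.16 (-0.26 to -0.057, adjusted p = 0.282), for INPP4B 0.16 (0.022 to 0.30, adjusted p = 0.463) and for PIK3CB 0.19 (0.0016 to 0.38, adjusted p = 0.533). The intervals of the other 5 genes included 0, and the widest of them, for PIK3R3, ran from -0.26 to 0.38.

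Levels were compared between genes per kb of exon, taking the union of annotated exons as the length. In each group PIK3R2 was far above the rest, at 2292 ± 54.4 normalized counts per kb in wt-GR Veh (SD, n = 3). Next came PIK3CB (719.0 ± 55.5) and PIK3CD (603.2 ± 26.1), then PIK3CA (231.3 ± 27.0) and PHLPP1 (202.1 ± 21.0), whose replicates overlapped. INPP4B (131.8 ± 4.42), PIK3IP1 (130.7 ± 6.05), PIK3R3 (126.8 ± 14.7) and PIK3R1 (102.2 ± 14.6) were the lowest, and in that order each overlapped the next. With TGFβ1 PIK3IP1 moved from rank 7 to rank 4, at 418.3 ± 23.8 per kb in wt-GR and 329.3 ± 34.3 in S134A-GR cells, above PIK3CA with no overlap. With TGFβ1 PIK3CD lay above PIK3CB in both lines, with 737.9 ± 31.0 against 650.7 ± 36.1 in wt-GR and 791.5 ± 54.5 against 641.3 ± 38.8 in S134A-GR cells. In S134A-GR Veh cells their replicates overlapped (607.4 ± 13.4 for PIK3CD and 620.7 ± 24.5 for PIK3CB). Per kb of coding sequence the PIK3CD mean was already the higher there (1674 against 1509). In S134A-GR TGFβ1 cells INPP4B (265.3 ± 4.95) also lay above PIK3CA (185.7 ± 16.3) with no overlap. The order depended on the length used. Per kb of coding sequence PIK3R2 was still the highest in each group, but PHLPP1 was the lowest in each (355.1 normalized counts per coding kb in wt-GR Veh), and PIK3IP1 went from rank 8 (511.7) to rank 3 (1637) with TGFβ1 in wt-GR cells and from rank 8 (570.5) to rank 4 (1289) in S134A-GR cells.

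As shares of the per-kb sum of the 3 catalytic genes, PIK3CD made up 38.9% ± 2.06 in wt-GR Veh and 45.9% ± 1.99 in wt-GR TGFβ1 cells. In S134A-GR cells its share was 43.5% ± 0.346 under Veh and 48.9% ± 3.26 with TGFβ1. PIK3CB made up 46.3% ± 1.38, 40.5% ± 1.200, 44.4% ± 0.459 and 39.6% ± 2.27 in the same order of groups. PIK3CA had the smallest share, with 14.9% ± 0.900, 13.6% ± 0.893, 12.1% ± 0.269 and 11.5% ± 1.01. The PIK3CD share in each TGFβ1 library was above that in each Veh library of its line, and the PIK3CB share was below it. With 3 libraries against 3 an exact permutation test cannot go below a two-sided p of 0.1, so no p is given for a share. Among the 3 regulatory genes, PIK3R2 made up between 89.9% and 93.5% in the 12 libraries. Shares depend on the length used, and with the coding length PIK3CA made up 23.1% on average over the 12 libraries and not 13.0%.

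**Figure D3:**
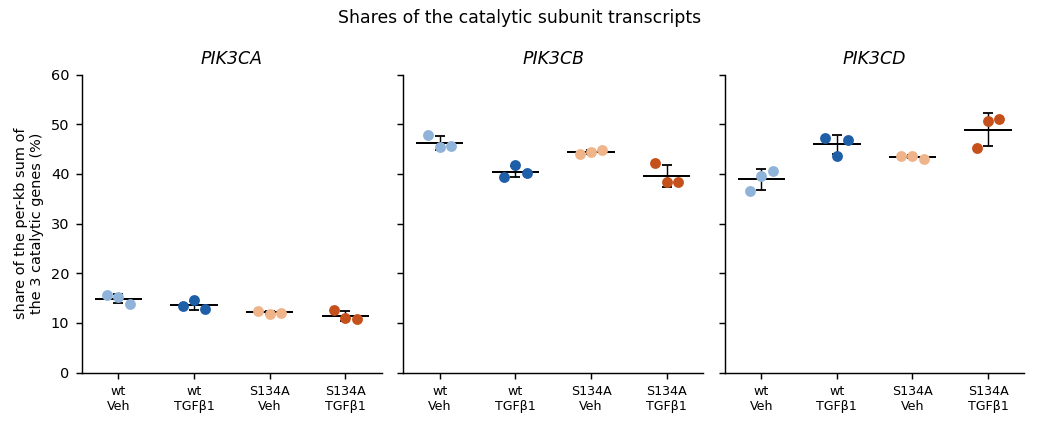
Share (y axis, percent) of each catalytic gene in the per-kb sum of PIK3CA, PIK3CB and PIK3CD, by group (x axis). Points are libraries, lines are means and bars are SD (n = 3). The PIK3CD share is higher in TGFβ1 than in Veh libraries of both lines, and PIK3CA stays between 10.7% and 15.6%.

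The surrounding pathway was described with a list of 42 other genes, of which 39 passed the filter on low counts. In wt-GR cells TGFβ1 raised 4 and lowered 9 of the 39, beside 11.2% and 9.82% of all genes tested, and in S134A-GR cells it raised 4 and lowered 6, beside 10% and 8.69%. The median log2 fold change over the list was -0.052 and -0.014, beside -0.0046 and -0.0097 over all genes tested. SGK1, a kinase that like AKT is switched on downstream of PI3K, rose most. In wt-GR cells it had 903.0 ± 60.5 normalized counts under Veh and 2106 ± 87.3 with TGFβ1 (log2 1.222, adjusted p = 1.26e-08) and in S134A-GR cells 943.1 ± 21.6 and 1981 ± 165 (log2 1.07, adjusted p = 6.26e-08). PIK3C2B, a class II PI3K, fell from 1342 ± 158 to 526.7 ± 20.1 (log2 -1.34, adjusted p = 1.75e-06) and from 873.4 ± 102 to 430.8 ± 71.2 (log2 -1.02, adjusted p = 3.07e-05). IRS1, an adaptor that brings PI3K to the insulin receptor, fell by 0.41 and 0.30, and RPTOR, a subunit of mTORC1, fell by 0.30 and 0.21 on the log2 scale. MAPKAP1, a subunit of mTORC2, rose by 0.22 and 0.19, and PIK3C3, the class III PI3K of endosomes and autophagy, rose by 0.13 and 0.19. In wt-GR cells the list's count was the least stable, at 7 with only these 2 groups fitted. It was 8 without wt-GR Veh replicate 1, 7 without wt-GR Veh replicate 2, 8 without wt-GR TGFβ1 replicate 1 and 7 without wt-GR TGFβ1 replicate 2, where PIK3C3 was among those lost (adjusted p = 0.0629).

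Between the lines, 23 of the 39 pathway genes were called under Veh, 11 higher and 12 lower in S134A-GR cells, and 17 under TGFβ1, 9 higher and 8 lower. Of all genes tested 51.5% were called under Veh (25% higher, 26.5% lower) and 48.8% under TGFβ1 (23.1% higher, 25.7% lower). The adaptors PIK3AP1 (log2 -0.94 and -1.06) and GAB2 (-0.60 and -0.50) were lower, and GAB1 (0.25 and 0.32) was higher. Among inositol phosphatases INPP5E (0.72 and 0.63) and INPP5J (0.75 and 0.45) were higher, while INPP5F (-0.43 and -0.24) and INPP5K (-0.39 and -0.45) were lower. Of the mTOR group 6 of 10 were higher under Veh and 0 lower, among them TSC2 (log2 0.34), MLST8 (0.30), TSC1 (0.24) and DEPTOR (1.01), by limma. Under TGFβ1 4 of the 10 were higher and 0 lower, and DEPTOR was not called (log2 0.56, adjusted p = 0.0556). PIK3CG, which encodes p110γ, was lower by -0.30 under Veh and -0.23 under TGFβ1. FOXO1, a transcription factor that AKT holds in the cytoplasm, was lower by -0.37 and -0.34. Some of these calls rested on single libraries. GAB1 under Veh was lost without wt-GR Veh replicate 3 (adjusted p = 0.0972) or S134A-GR Veh replicate 2 (adjusted p = 0.0784). FOXO1 was lost under Veh without replicate 2 of either line (adjusted p = 0.0670 and 0.0593), and under TGFβ1 without wt-GR replicate 2 or 3 (adjusted p = 0.159 and 0.0668) or S134A-GR replicate 1 or 2 (adjusted p = 0.0888 and 0.0554). PIK3CG under TGFβ1 was lost without wt-GR replicate 2 (adjusted p = 0.0768) or S134A-GR replicate 2 or 3 (adjusted p = 0.0523 and 0.0543).

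AKT1 was called in none of the comparisons. AKT2 was higher in S134A-GR cells under Veh (log2 0.10, adjusted p = 0.0395), a call lost with adjusted p of 0.0506 to 0.178 without wt-GR Veh replicate 2 or 3, wt-GR TGFβ1 replicate 3 or S134A-GR Veh replicate 1 or 3. PDPK1, the kinase that activates AKT, fell by 0.13 on the log2 scale with TGFβ1 in wt-GR cells (adjusted p = 0.0421), and that call was lost when any of wt-GR Veh replicates 1 and 2, wt-GR TGFβ1 replicates 1 to 3, S134A-GR Veh replicate 3 and S134A-GR TGFβ1 replicate 2 was left out (adjusted p from 0.0537 to 0.155). In the test of the difference in response, 0 of the 39 passed in limma (3 at an unadjusted p under 0.05), 0 in edgeR and 0 in DESeq2.

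**Figure D4:**
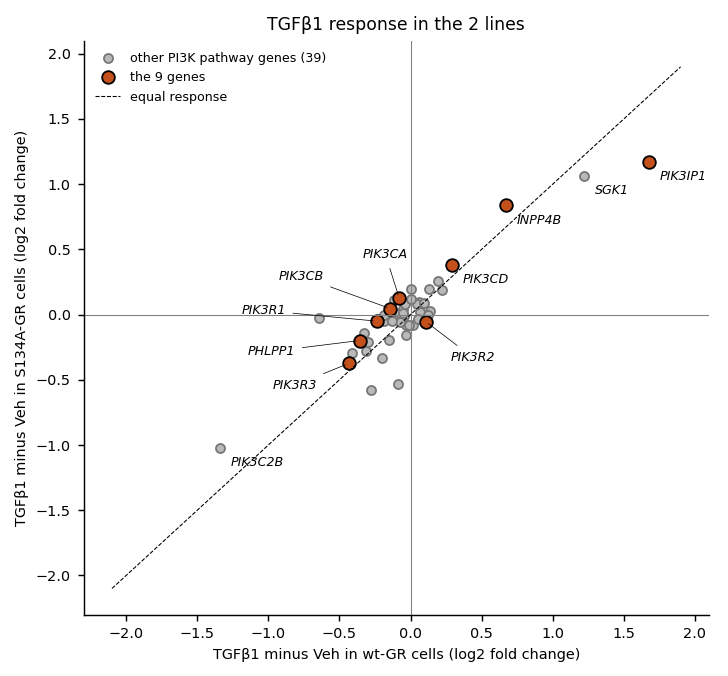
Log2 fold change with TGFβ1 in wt-GR cells (x axis) and in S134A-GR cells (y axis) for the 9 genes (orange) and 39 other PI3K pathway genes (grey), with the line of equal response dashed. PIK3IP1 lies below the line at 1.68 and 1.17, and INPP4B just above it at 0.67 and 0.84.

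Each gene was also set beside its 20 nearest tested neighbours on the chromosome, 10 on each side. No neighbour of PIK3IP1 rose as far with TGFβ1, the highest being 0.47 in wt-GR and 0.85 in S134A-GR cells on the log2 scale. The same was true of INPP4B, whose neighbours reached 0.49 and 0.41. PIK3R3 lay below all 20 of its neighbours in both lines, the lowest of which were at -0.28 and -0.36. For PIK3CD, by contrast, 2 of 20 neighbours in wt-GR and 3 in S134A-GR cells rose further. Between the lines under Veh, PIK3CA lay among neighbours with a median of -0.20, of which 12 of 20 were called lower and 3 higher. Those of PIK3CB had a median of -0.20, with 8 lower and 3 higher. PIK3CA and PIK3CB are on chromosome 3, and PIK3CA was lower than 17 of its 20 neighbours. Low medians were also seen around PIK3CD and PIK3R1, which were not called under Veh and are on chromosomes 1 and 5. Neighbours of PIK3CD had a median of -0.19, with 11 lower and 1 higher. Those of PIK3R1 had a median of -0.29, with 9 lower and 2 higher. The medians around PIK3R2 (0.15) and INPP4B (0.077) were above 0. Of all genes tested 26.5% were called lower under Veh and 25% higher.

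The genes whose levels followed PIK3IP1 most closely over the 12 libraries, among 11740 genes compared, were GPR17 (Pearson r = 0.994), PDLIM4 (0.992) and SH3KBP1 (0.990). GPR17 had means of 886.3, 1367, 948.3 and 1256 normalized counts in wt-GR Veh, wt-GR TGFβ1, S134A-GR Veh and S134A-GR TGFβ1. PDLIM4 had means of 4771, 8527, 4993 and 7452, and SH3KBP1 10292, 16004, 10205 and 14312. All 3 rose in both lines and had a lower mean in S134A-GR TGFβ1 than in wt-GR TGFβ1 libraries. They were picked for likeness to PIK3IP1 over these libraries, so the shared pattern is no separate evidence. The line difference under TGFβ1 was called for PDLIM4 and SH3KBP1 and not for GPR17 (log2 -0.12, adjusted p = 0.0689). Among the 9 genes, INPP4B (r = 0.87) and PIK3CD (0.87) went with PIK3IP1 and PIK3R3 (-0.86) and PHLPP1 (-0.82) went against it. These coefficients describe 12 libraries in 4 groups that share the treatment, and carry no test.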

How the data were processed

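RNA was prepared with a TruSeq RNA kit and sequenced on a HiSeq2500 with 75-base paired-end reads. Per the submitters' processing notes and the study's methods, reads were checked with FastQC (0.11.7), trimmed with Trimmomatic, aligned to hg38 with HISAT2 and counted with featureCounts of Subread. The annotation and strand setting are not given in the sources used here. The signal deposited by the authors is 1 normalized count per gene symbol and library, the read count divided by a DESeq2 (1.22.2) size factor. In each library 100% of values lay within 0.01 of a whole multiple of 1 step, which gave back the counts (56362036 to 129832227 per library, called reads here, although whether pairs or read ends were counted is not given in the sources used here).

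Groups came from the labels. Symbols with at least 10 reads summed over 12 libraries were tested (18579). The main test was limma (3.58.1, R 4.3.3) with a mean-variance trend on log2(normalized count + 1), 4 group means in 1 fit and Benjamini-Hochberg adjustment, with calls at 0.05. A fold change on this scale understates changes of low genes. edgeR (4.0.16, quasi-likelihood) and DESeq2 (1.42.0) on the recovered reads were alternatives (edgeR called 9452, 9106, 3892, 3450 and 78 genes in the 5 comparisons, and limma 9569, 9070, 3910, 3475 and 77), with other pseudocounts (0.5 and 16), filters and scaling, a replicate block, the compared groups alone, and each library left out. The scripts were tested on simulated data. Positions and lengths came from GENCODE (GRCh38) and promoters from RefSeq (GRCh38.p14). Beside the 9 genes and genes overlapping them, called pathway genes with the largest absolute changes in their role (up to 3 per role and comparison), AKT1, AKT2 and PDPK1, and the 3 genes most like PIK3IP1 in Pearson r were eligible to be named. Some genes of the pathway list are not reported here. The members, lists and motifs were chosen with earlier results of these data known.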

Additional observations from a re-analysis of the deposited data

Results flagged for a closer look

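For PIK3R2 the TGFβ1 libraries lay on opposite sides of the Veh libraries in the lines. All 3 wt-GR TGFβ1 libraries (12502 to 13213 normalized counts) lay above all wt-GR Veh libraries (11522 to 12064), and all 3 S134A-GR TGFβ1 libraries (10167 to 10618) lay below all S134A-GR Veh libraries (10760 to 10945). The log2 fold change was 0.11 in wt-GR cells (adjusted p = 0.0381 in limma), a call lost under 10 of 21 alternatives. In S134A-GR cells it was -0.05 (adjusted p = 0.330 in limma) and was not called. The difference between the 2 was -0.16 (adjusted p = 0.282 in limma, and between 0.116 and 0.591 over the alternatives), so it did not pass the test of the difference. No other of the 9 genes showed this pattern.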

How the results depend on the processing

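Over 21 alternatives, 35 of the 45 results for the 9 genes kept their side of the threshold, as did 14 of the 19 calls. Of 936 recomputed values 904 kept their side, 24 lost a call and 8 gained one. Among the 19 called results 0 changed sign, while 15 values changed sign in 9 of the results that were not called. In DESeq2 the difference in response of PIK3IP1 passed (log2 -0.50, adjusted p = 0.0112), which makes 1 of the 9 genes called there. Over all genes DESeq2 called 208 in that comparison against 77 in limma. Fitting only the groups compared left 7 pathway genes called in the wt-GR response (13 in all 4 groups). Leaving out 1 library gave 3 to 5 of the 9 genes under Veh between the lines, 3 to 5 under TGFβ1, 5 to 8 in the wt-GR response, 3 to 5 in the S134A-GR response and 0 in the difference, and 7 to 15 pathway genes in the wt-GR response. With the coding length, mean shares over 12 libraries were 23.1% for PIK3CA, 35.3% for PIK3CB, 9.84% for PIK3R1, 81.0% for PIK3R2 and 9.15% for PIK3R3. The causes of these changes were not tested.

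No pairing of the libraries by replicate number was seen, although with 3 libraries in each group this check cannot tell whether the design had one. Over 12468 genes the correlation of deviations from group means between libraries with the same number averaged 0.000891 and ranged from -0.155 to 0.154, and 3 of 12 libraries correlated best with their own number. With the replicate number as a block, 5, 4, 5, 4 and 0 of the 9 genes were called in the 5 comparisons (PIK3R2 in wt-GR cells at adjusted p = 0.0529), and 23, 17, 10, 10 and 0 pathway genes.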
